A study of Homo sapiens with 8 samples.

Results

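The fatty acid binding proteins (FABPs) were followed across 8 two-colour arrays of HepG2 cells, a human hepatoblastoma line used as a hepatocyte model. Members were taken by gene symbol, as every probe whose annotated symbol is FABP followed by a number. This gave 10 probes for 9 genes among 29187 probes and 18819 tested genes: FABP1, FABP2, FABP3, FABP4, FABP5, FABP6, FABP7, FABP9 and FABP12. FABP7 had 2 probes and the other genes 1 each. The 3 kinds of treated sample all took up fat first: they had 400 µM oleate, carried by albumin at a ratio of 6.6, for 24 h in medium with serum. They were then washed and kept for another 24 h in medium without serum. The linalool group (2 arrays) had 1 mM linalool in that second step, the fenofibrate group (3 arrays) had 100 µM fenofibrate, and the lipid-loaded group (3 arrays) had no compound. The treatment field of the labels adds palmitate to the oleate, so the fatty acid given is uncertain. Untreated HepG2 cells filled the other channel of every array, and the labels do not say whether they had the step without serum.

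Values are log2 ratios of the 2 channels as deposited. Treated RNA always carried Cy3 and untreated RNA Cy5, but whether treated stands over untreated or under it is not stated in the labels. "Positive" and "negative" therefore give the deposited sign, and no FABP gene is said to be raised or lowered by treatment. A difference between groups has the same open direction. With no dye swap, a dye effect specific to a probe stays in each ratio against untreated cells. Ratios hold no level, so FABP genes cannot be ranked by abundance, and the hepatocyte identity of the cells could not be checked by marker level. Arrays of a group are labelled biological replicates, with no word on separate cultures, so p-values measure only the spread between these samples. Ratios over all probes spread most on lipid-loaded arrays, with a median absolute deviation of 0.63 to 0.87. It was 0.45 to 0.58 on fenofibrate arrays and 0.43 to 0.45 on linalool arrays. Fenofibrate replicate 3 stood apart, with a correlation across genes of r = 0.127 with the mean of the other arrays, against 0.440 to 0.716 for the other 7. Fenofibrate means of FABP genes that moved by a large share of their size without it are also given without it.

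FABPs are small cytosolic proteins that hold long-chain fatty acids or other lipids inside a barrel of beta strands, and carry them between membranes, enzymes and the nucleus. FABP1 is the form of hepatocytes, where it is abundant, binds fatty acids and fibrates, and can pass them to the nuclear receptor PPARα. Its own gene is a classic PPARα target. The other forms are named for other tissues: FABP2 for small intestine, FABP3 for heart and skeletal muscle, FABP4 for adipocytes and macrophages, FABP5 for epidermis, FABP6 for ileum, where it binds bile acids, FABP7 for brain and FABP9 for testis. FABP12 is known mainly from the retina and testis of rodents.

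Upstream sequences are shown for the 2 members whose profiles ran most against each other, FABP1 and FABP6. They are the 250 bases before the RefSeq gene start in build GRCh38.p14, at chr2:88128063-88128312 on the minus strand for FABP1 and at chr5:160229256-160229505 on the plus strand for FABP6. Capitals mark the closest match to a direct repeat of AGGTCA with 1 base between (DR1, the kind of element PPARα binds with its partner RXR) in FABP1. In FABP6 they mark the closest match to an inverted repeat of AGGTCA with 1 base between (IR1, the kind bound by the bile acid receptor FXR).
FABP1: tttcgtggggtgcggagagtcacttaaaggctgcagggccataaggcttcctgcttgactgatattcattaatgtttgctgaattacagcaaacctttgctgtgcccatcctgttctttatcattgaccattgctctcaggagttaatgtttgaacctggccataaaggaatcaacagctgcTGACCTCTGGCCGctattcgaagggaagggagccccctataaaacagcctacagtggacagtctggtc
FABP6: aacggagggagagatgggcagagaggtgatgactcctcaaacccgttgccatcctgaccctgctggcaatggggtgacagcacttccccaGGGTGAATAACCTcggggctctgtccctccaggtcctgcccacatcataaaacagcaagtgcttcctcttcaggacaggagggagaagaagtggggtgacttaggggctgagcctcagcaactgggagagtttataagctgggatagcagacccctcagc

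Both strands were searched, and DR1 and IR1 share a half-site, so their matches can overlap. The FABP1 match lay at −68 to −56 from the start on the minus strand and differed from DR1 at 2 of 12 letters, and 2.57% of 35097 upstream regions of the same length held a match at least as close. FABP1 also held TATAAA at −31 to −26, and FABP6 held it on the minus strand at −30 to −25. On either strand 10.7% of the regions held it. The FABP6 match lay at −160 to −148 and differed from IR1 at 3 of 12 letters, as close as in 8.92% of the regions. The closest DR1 match differed at 3 letters in FABP2, at 4 in FABP3 and FABP6, as close as in 68.7% of the regions, and at 5 in FABP7, as close as in 99.4%. RefSeq upstream sequence was matched for 5 of the 9 genes. These matches describe letters and were not tested as binding sites.

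FABP1, the hepatocyte form, had positive ratios on all fenofibrate and lipid-loaded arrays and split on the linalool arrays. Its log2 ratio was 0.29 and −0.58 on the 2 linalool arrays, 0.99, 0.78 and 0.89 on the 3 fenofibrate arrays, and 0.91, 0.51 and 0.82 on the 3 lipid-loaded arrays. The linalool arrays lay below every array of the other groups, and the fenofibrate and lipid-loaded arrays overlapped. Against untreated cells FABP1 averaged 0.89 ± 0.10 with fenofibrate (SD, n = 3), a 1.85-fold ratio (SE of the fit 0.19, limma adjusted p = 0.132, unadjusted p = 0.000565). That placed it at the 99.8th percentile of all genes in the fenofibrate group, and the mean was 0.88 without fenofibrate replicate 3. In lipid-loaded cells it averaged 0.75 ± 0.21 (SD, n = 3), a 1.68-fold ratio that passed the test (SE 0.19, adjusted p = 0.0168). With linalool the mean was −0.14 ± 0.62 (SD, n = 2, SE 0.23, adjusted p = 0.803), with a 95% interval of −0.65 to 0.36. The fit pools the spread of the 3 groups. This SE and interval thus rest partly on the fenofibrate and lipid-loaded arrays, which spread less for FABP1.

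**Figure D1:**
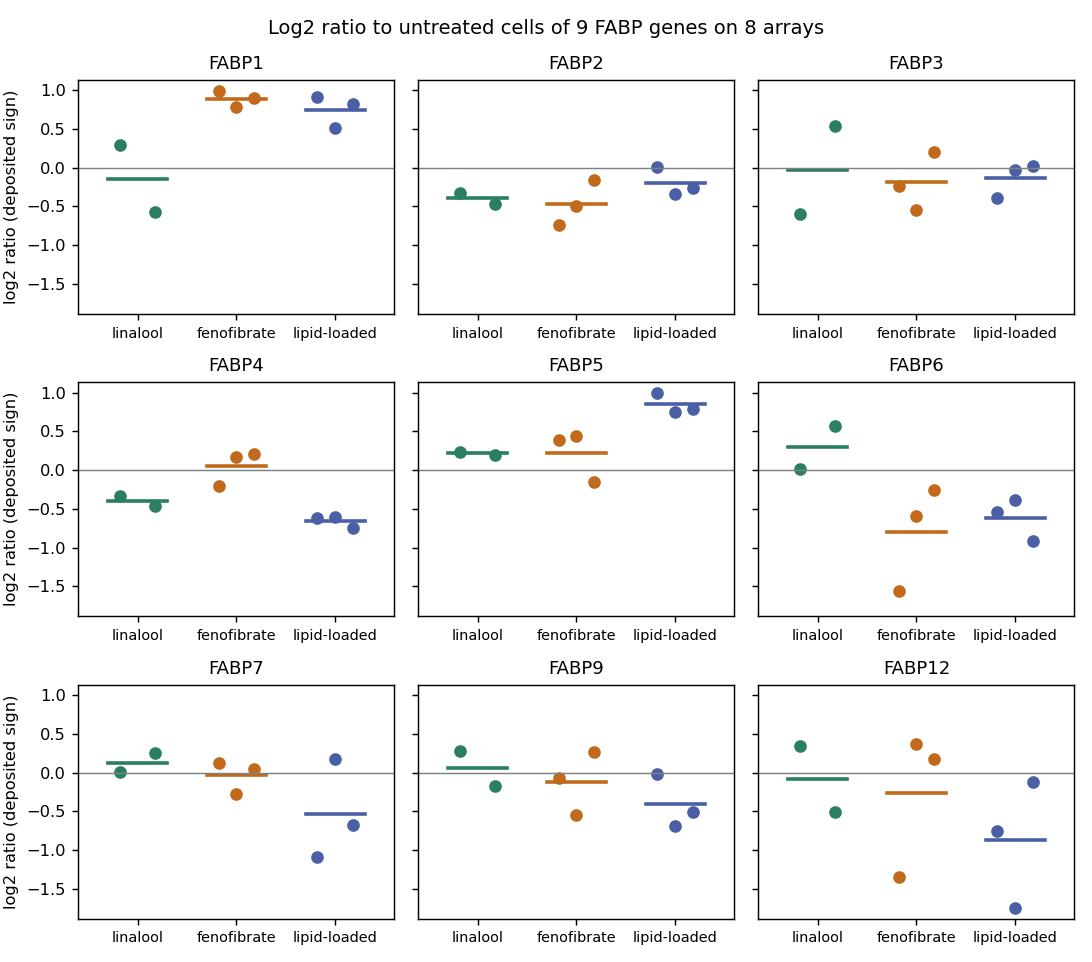
Log2 ratio to untreated cells (deposited sign) of each of the 9 FABP genes. Points are arrays in replicate order (2 linalool, 3 fenofibrate, 3 lipid-loaded), FABP7 is the mean of its 2 probes, and bars are group means. The FABP1 points of fenofibrate and lipid-loaded cells all lie between 0.51 and 0.99, and the FABP5 points of lipid-loaded cells lie between 0.75 and 1.00.

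FABP5, the epidermal form, which is also found in many other tissues and in tumour cells, had the highest mean ratio of the family in lipid-loaded cells. Its log2 ratio was 0.24 and 0.19 with linalool, 0.38, 0.44 and −0.16 with fenofibrate, and 1.00, 0.75 and 0.80 in lipid-loaded cells. All lipid-loaded arrays lay above all arrays of both compounds. The lipid-loaded mean of 0.85 ± 0.13 (SD, n = 3), a 1.80-fold ratio, passed the test (SE 0.17, limma adjusted p = 0.0135). The means of 0.22 with linalool (SE 0.21, adjusted p = 0.654) and 0.22 with fenofibrate (SE 0.17, adjusted p = 0.508) did not. Without fenofibrate replicate 3 the fenofibrate mean was 0.41 (adjusted p = 0.187).

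FABP5 has many near-identical processed pseudogenes, and a probe can bind more than 1 of them. The array's probe for FABP5P3, a transcribed pseudogene, gave 0.22 and 0.14 with linalool, 0.47, 0.26 and −0.05 with fenofibrate, and 1.18, 0.67 and 0.80 in lipid-loaded cells. Whether the FABP5 probe also read pseudogene transcripts was not tested, so the FABP5 values are uncertain in that respect.

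FABP4, the adipocyte and macrophage form, was negative on every linalool and lipid-loaded array. Its log2 ratio was −0.34 and −0.47 with linalool, −0.20, 0.16 and 0.21 with fenofibrate, and −0.62, −0.60 and −0.75 in lipid-loaded cells. The 3 groups did not overlap: the lipid-loaded arrays lay lowest, the linalool arrays between, and the fenofibrate arrays highest. With arrays scaled to the same spread, the lipid-loaded and linalool means were close, at −0.54 and −0.52. The lipid-loaded mean was −0.66 ± 0.08 (SD, n = 3), a ratio 1.58-fold below 1, and passed (SE 0.16, limma adjusted p = 0.0152). The linalool mean of −0.40 (SE 0.19, adjusted p = 0.413) and the fenofibrate mean of 0.06 (SE 0.16, adjusted p = 0.884, and −0.02 without fenofibrate replicate 3) did not pass. FABP4 had the smallest spread within groups of the 9 genes, with a residual SD of 0.157, at the 6.36th percentile of all genes.

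FABP6, the bile acid binding protein of the ileum, was negative on every fenofibrate and lipid-loaded array and positive on both linalool arrays. Its log2 ratio was 0.02 and 0.57 with linalool, −1.56, −0.60 and −0.25 with fenofibrate, and −0.54, −0.38 and −0.92 in lipid-loaded cells. The value of 0.02 lay below the median of its array over all probes, 0.0452. How many of all genes had such a split in sign was not counted. The fenofibrate mean was −0.80 ± 0.68 (SD, n = 3, SE 0.24, limma adjusted p = 0.149), lower than in all but 0.903% of the genes. Fenofibrate replicate 1 lay far below the others, and without it the mean was −0.42. Without fenofibrate replicate 3 the mean was −1.08. The lipid-loaded mean of −0.61 ± 0.27 (SD, n = 3, SE 0.24) missed the threshold at adjusted p = 0.0633. With linalool the mean was 0.29 ± 0.39 (SD, n = 2, SE 0.29, adjusted p = 0.669).

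FABP2, the intestinal form, which carries fatty acids absorbed by enterocytes, was negative on 7 of 8 arrays. Its log2 ratio was −0.32 and −0.47 with linalool, −0.74, −0.50 and −0.16 with fenofibrate, and 0.01, −0.34 and −0.27 in lipid-loaded cells. The groups overlapped, and the fenofibrate mean of −0.47 (SE 0.17, limma adjusted p = 0.186) was the farthest from 0. That mean was −0.62 without fenofibrate replicate 3. FABP3, which serves fatty acid use in heart and muscle, ran from −0.59 to 0.54 over the arrays, and both of these ends were linalool arrays. Its group means were −0.03 with linalool, −0.19 with fenofibrate and −0.14 in lipid-loaded cells, each within its own SE of 0. The fenofibrate mean of FABP3 was −0.39 without fenofibrate replicate 3 (limma adjusted p = 0.375) and −0.01 without replicate 2.

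FABP7, FABP9 and FABP12 had their most negative means in lipid-loaded cells, and none passed the test. FABP7, the brain form of radial glia, gave 0.01 and 0.25 with linalool, 0.12, −0.27 and 0.05 with fenofibrate, and −1.09, 0.18 and −0.68 in lipid-loaded cells. Its lipid-loaded mean was −0.53 (SE 0.22, limma adjusted p = 0.0788), which was −0.25 without lipid-loaded replicate 1 and −0.88 without replicate 2, where it passed (adjusted p = 0.0474). Its fenofibrate mean was −0.03, and −0.08 without fenofibrate replicate 3. Its 2 probes differed most on lipid-loaded replicate 1, at −0.58 and −1.59, and had opposite signs on 4 of 8 arrays (linalool 1, fenofibrate 1 and 2, and lipid-loaded 2). FABP9, the testis form, averaged 0.05 with linalool, −0.12 with fenofibrate (−0.30 without fenofibrate replicate 3) and −0.41 in lipid-loaded cells (SE 0.20, adjusted p = 0.128), or −0.26 without lipid-loaded replicate 2. FABP12 gave 0.34 and −0.50 with linalool, −1.35, 0.37 and 0.18 with fenofibrate, and −0.75, −1.75 and −0.13 in lipid-loaded cells. Its residual SD of 0.834 lay at the 98.8th percentile of all genes, against a median of 0.334, and its lipid-loaded mean of −0.88 carried an SE of 0.35 (adjusted p = 0.0693) and was −0.44 without lipid-loaded replicate 2. Its fenofibrate mean was −0.26, and −0.49 without fenofibrate replicate 3.

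In lipid-loaded against untreated cells 3 of the 9 FABP genes were called at a limma adjusted p under 0.05, where 34.8% of all genes were. FABP1 and FABP5 were called with a positive ratio, which 24.1% of all genes were, and FABP4 with a negative one, against 10.7%. The family's share is close to that of all genes and is no result about the family. Its median ratio was −0.41, against −0.003 over all genes. The 3 calls needed lipid-loaded replicate 1: without it 0 FABP genes were called (smallest adjusted p 0.0987), and without replicate 3 FABP5 alone was (adjusted p = 0.0392). Once arrays were scaled to equal spread, 0 were called (smallest adjusted p 0.0594), and in both of these settings 0 of all genes were. Without lipid-loaded replicate 2 FABP4 was not called (adjusted p = 0.0515), and after quantile normalization FABP1 was not (adjusted p = 0.0518).

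In the fenofibrate group 0 of 9 FABP genes were called by limma, as were 0% of all genes. At an unadjusted p under 0.05 there were 3, FABP1, FABP2 and FABP6, where 18.1% of all genes passed. The family's median ratio was −0.12, against 0.02 over all genes. In the linalool group 0 of 9 were called, again with 0% of all genes, and 0 of 9 had an unadjusted p under 0.05, which 12.4% of all genes had. There the family's median was −0.03, against 0.04. In lipid-loaded cells 6 of 9 had an unadjusted p under 0.05, where 48.8% of all genes did.

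**Figure D2:**
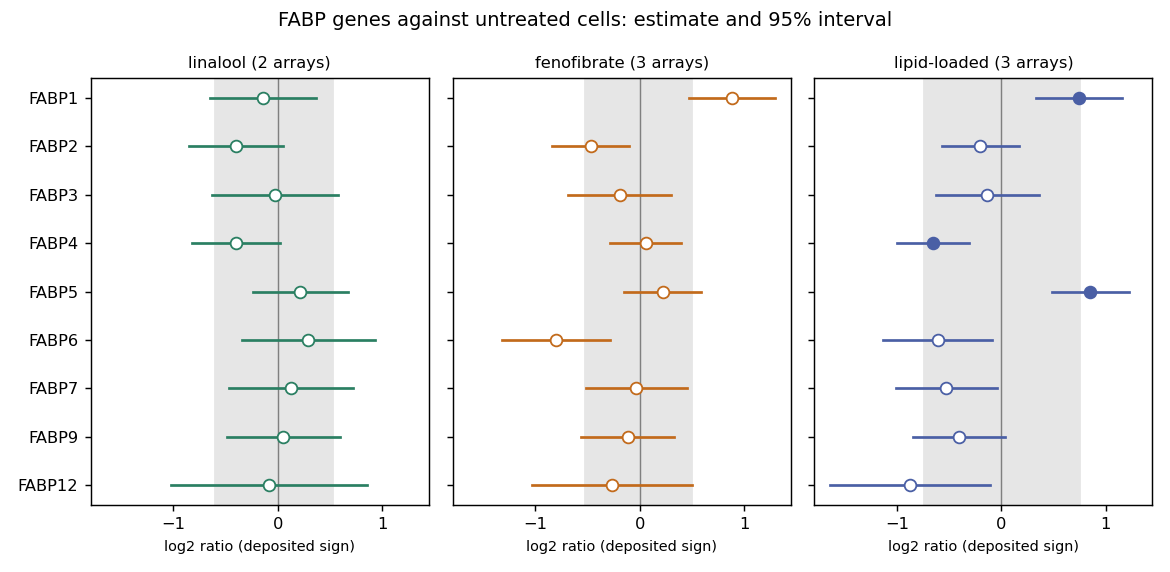
Estimated log2 ratio to untreated cells (deposited sign, x axis) of each FABP gene (y axis) with its 95% interval from the fit, for linalool, fenofibrate and lipid-loaded cells. Filled points passed an adjusted p under 0.05, open points did not, and the grey band holds the middle 90% of all 18819 genes. FABP1, FABP4 and FABP5 are filled, all in lipid-loaded cells, and points outside the band are FABP1 (0.89) and FABP6 (−0.80) with fenofibrate, and FABP5 (0.85) and FABP12 (−0.88) in lipid-loaded cells.

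Between groups, where a constant dye effect cancels, 0 of 9 FABP genes were called by limma in each of the 3 comparisons, as were 0% of all genes. At an unadjusted p under 0.05 there were 3 for linalool minus lipid-loaded (FABP1, FABP5 and FABP6), where 11.6% of all genes passed. For fenofibrate minus lipid-loaded there were 2 (FABP4 and FABP5), against 10.3%. For linalool minus fenofibrate there were 2 (FABP1 and FABP6), against 5.02%. Arrays of linalool and lipid-loaded cells did not overlap for 4 of the 9 genes, and for 37.1% of all genes. Those of fenofibrate and lipid-loaded cells did not overlap for 2 genes, against 18.8%, and those of linalool and fenofibrate for 3, against 20.0%. The comparisons share groups, so their counts are not independent.

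FABP1 had the most negative difference of the family in both comparisons of linalool. Linalool minus fenofibrate was −1.03 (SE 0.30, 95% interval −1.68 to −0.38, limma adjusted p = 0.881, unadjusted p = 0.00499), lower than in all but 0.553% of the genes, and a 2.04-fold gap in ratio. It was −1.47 without linalool replicate 1 and −0.59 without linalool replicate 2 (1 linalool array left in each case). Linalool minus lipid-loaded was −0.89 (SE 0.30, adjusted p = 0.357), and it was −1.33 without linalool replicate 1 and −0.45 without linalool replicate 2. Fenofibrate minus lipid-loaded was 0.14 (SE 0.27, adjusted p = 0.817), with a 95% interval of −0.44 to 0.72, which does not show that the groups were alike.

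FABP5 was nearer to 0 with either compound than in lipid-loaded cells, by differences of the same size that did not pass the test. Linalool minus lipid-loaded was −0.63 (SE 0.27, limma adjusted p = 0.404), and fenofibrate minus lipid-loaded was −0.63 (SE 0.24, adjusted p = 0.472), or −0.44 without fenofibrate replicate 3. Both differences use the same lipid-loaded arrays, on which ratios over all probes also spread most. With arrays scaled to the same spread, the FABP5 means were 0.28 with linalool, 0.25 with fenofibrate and 0.68 in lipid-loaded cells. Whether the FABP5 differences go beyond the wider spread of those arrays was not tested. Linalool minus fenofibrate was −0.01, with a 95% interval of −0.59 to 0.58.

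FABP4 differed most between fenofibrate and lipid-loaded cells, by 0.72 (SE 0.22, 95% interval 0.23 to 1.20, limma adjusted p = 0.472, unadjusted p = 0.00762). The difference was 0.64 without fenofibrate replicate 3. Linalool minus lipid-loaded was 0.26 (SE 0.25, adjusted p = 0.685), and 0.02 with arrays scaled to the same spread. FABP6 had the most positive differences of linalool, 1.10 over fenofibrate (SE 0.38, adjusted p = 0.948) and 0.91 over lipid-loaded cells (SE 0.38, adjusted p = 0.398). The difference from fenofibrate was 0.72 without fenofibrate replicate 1.

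**Figure D3:**
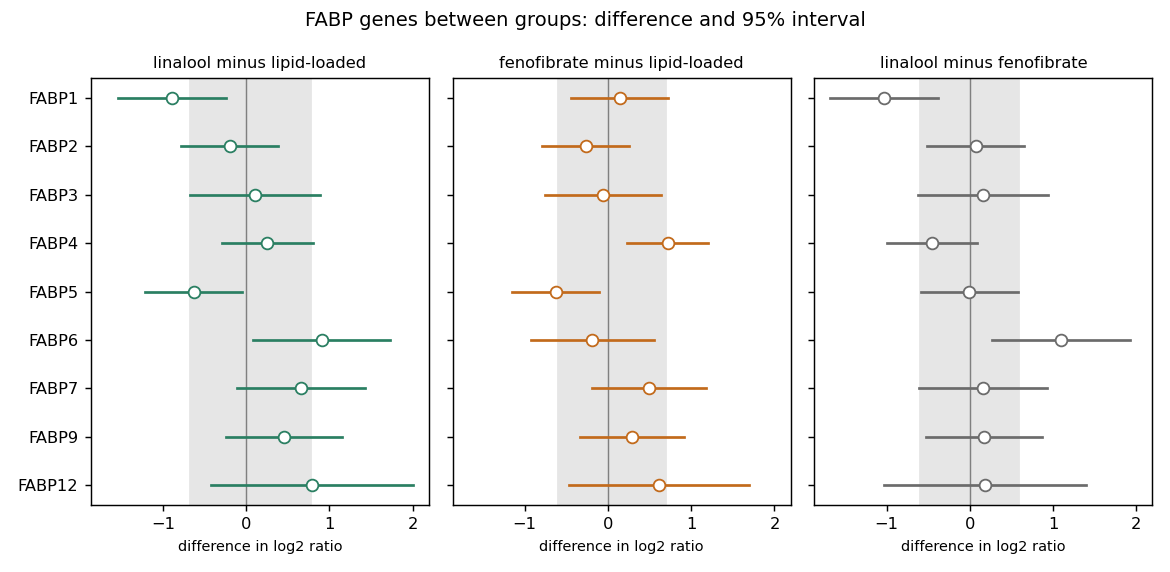
Difference in log2 ratio between groups (x axis) of each FABP gene (y axis) with its 95% interval from the fit. Open points did not pass an adjusted p under 0.05, and the grey band holds the middle 90% of all 18819 genes. No point is filled; FABP1 lies at −1.03 and FABP6 at 1.10 for linalool minus fenofibrate.

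FABP5, FABP9, FABP4 and FABP12 are neighbours on 1 chromosome, with PMP2, another member of the lipid-binding family made by myelinating cells, between FABP5 and FABP9. In lipid-loaded cells their log2 ratios in that order were 0.85 for FABP5, −0.10 for PMP2 (SE 0.16, limma adjusted p = 0.634), −0.41 for FABP9, −0.66 for FABP4 and −0.88 for FABP12. The neighbours thus did not share a sign. Over the 8 arrays FABP4 and FABP5 correlated at r = −0.73 and FABP1 and FABP6 at r = −0.82. These describe 8 points in 3 groups, all set against untreated cells.

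By Pearson correlation over the 8 arrays, the 5 genes most like FABP1 among 18818 were TCEA3 (r = 0.97), TTR (0.97), ANKRD37 (0.94), KBTBD4 (0.94) and GM2A (0.93). TTR, the thyroid hormone carrier transthyretin secreted by liver, gave 0.46 and −0.06 with linalool, 0.74, 0.63 and 0.75 with fenofibrate, and 0.77, 0.51 and 0.53 in lipid-loaded cells. Linalool replicate 2 was its lowest array, as for FABP1. The median of 8 hepatocyte markers, TTR among them, was 0.32 and −0.12 with linalool, 0.56, 0.36 and 0.81 with fenofibrate, and 0.87, 0.53 and 0.63 in lipid-loaded cells. In lipid-loaded cells 7 of these 8 markers were called, all with a positive ratio, which 24.1% of all genes were. Their part in the FABP1 values was not tested. All samples were of 1 cell line, measured as bulk RNA. A change in the share of cells in some state and a change in RNA per cell cannot be told apart.

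Beside FABP4, 5 adipocyte markers had medians of −0.23 and −0.02 with linalool, −0.33, −0.26 and 0.13 with fenofibrate, and −0.38, −0.61 and −0.75 in lipid-loaded cells. Of the 5, 1 was called in lipid-loaded cells, with a negative ratio, which 10.7% of all genes were: ADIPOQ, which codes for adiponectin, at −1.87 (SE 0.33, limma adjusted p = 0.0135). The part of these genes in the FABP4 values was not tested. Of 5 enterocyte markers, FABP2 among them, 1 was called positive and 1 negative in lipid-loaded cells. Of 4 neural and glial markers 2 were called there, both negative, of 4 blood and macrophage markers 1, positive, and of 4 muscle markers 0 (limma, 0 at an unadjusted p under 0.05). Of all genes 24.1% were called positive there and 10.7% negative.

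**Figure D4:**
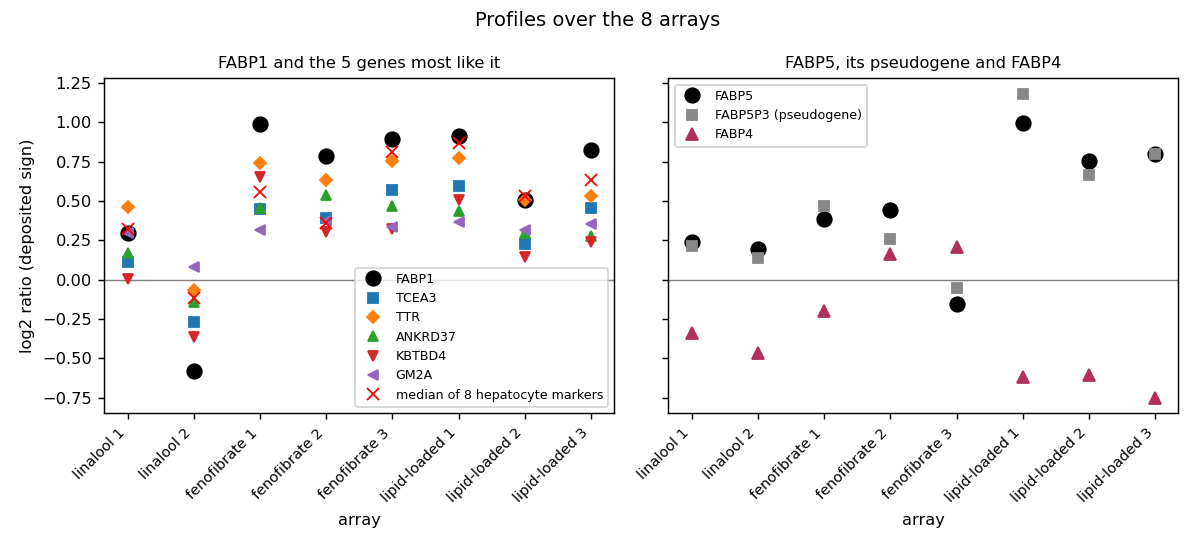
Log2 ratio to untreated cells (deposited sign, y axis) on each of the 8 arrays (x axis). Left, FABP1, the 5 genes most correlated with it and the median of 8 hepatocyte markers, all lowest on linalool replicate 2; right, FABP5, its pseudogene FABP5P3 and FABP4. FABP5 and FABP5P3 lie close together on every array, and FABP4 lies below them on all arrays but fenofibrate replicate 3.

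The steps around FABPs were read from 4 lists. Of 9 genes of fatty acid uptake at the membrane, 1 was called in lipid-loaded cells, where 34.8% of all genes were: GOT2, the mitochondrial aspartate aminotransferase also known as a plasma membrane fatty acid binding protein, at 0.81 (SE 0.19, limma adjusted p = 0.0148). SLC27A5, a bile acid and fatty acid CoA ligase of liver, was at −0.56 (SE 0.20, adjusted p = 0.053), and CD36, the fatty acid translocase, at −0.13 (SE 0.15, adjusted p = 0.503). The list's median was −0.02. Of 13 measured acyl-CoA synthetases and binding proteins, 6 were called in lipid-loaded cells, all positive, where 24.1% of all genes were called positive. Their median was 0.34. ACSL1, which activates long-chain fatty acids in liver, stood at 0.73 (SE 0.16, adjusted p = 0.0137) and DBI, the acyl-CoA binding protein, at 0.72 (SE 0.18, adjusted p = 0.0165). With fenofibrate ACSL1 had 0.48 (SE 0.16, adjusted p = 0.163) and SLC27A5 had −0.54 (SE 0.20, adjusted p = 0.204).

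Among 12 measured receptors and liver transcription factors, 5 were called in lipid-loaded cells, all positive, again against 24.1% of all genes, and their median was 0.45. CEBPA, a factor of hepatocyte and adipocyte differentiation, stood at 0.84 (SE 0.19, limma adjusted p = 0.0138). PPARA, which codes for the fibrate receptor, gave 0.46 and 0.41 with linalool, 0.55, 0.23 and 0.02 with fenofibrate, and 0.42, 0.13 and 0.42 in lipid-loaded cells. It was positive on all arrays and passed in no group (adjusted p = 0.406, 0.412 and 0.129). RXRA, its binding partner, averaged 0.53 with fenofibrate (SE 0.17, adjusted p = 0.164) and 0.50 in lipid-loaded cells (SE 0.17, adjusted p = 0.0444). PPARG, the related receptor of adipocytes, had 0.71 with linalool (SE 0.19, adjusted p = 0.265). Of 5 measured sister lipid-binding proteins, 0 were called (1 at an unadjusted p under 0.05), and RBP5, a retinol binding protein, was the nearest at 0.38 (SE 0.17, adjusted p = 0.094). In the linalool and fenofibrate groups, and in the 3 differences between groups, 0 genes of the 4 lists were called, as for all genes.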

How the data were processed

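RNA of HepG2 cells was measured on 8 arrays with 2 colours in 3 groups. The values the authors deposited, for 29187 probes, were read as log2 of 1 channel over the other. How background was corrected and arrays were normalized is not given in the sources used here. On every array 100% of the values tested were log2 of a ratio with 3 decimals plus a constant (tolerance 1e-04), against at most 16.9% with the sign turned. Column medians lay between −0.012 and 0.0865, and column means between −4.49e-05 and 5.93e-05. A ratio of 0 thus stands at the mean over all probes of its array. The numerator is unknown, and signal over background was not used here.

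Platform symbols named 25053 probes, none with several symbols, and left 4134 unnamed; 24981 were matched by identifier to RefSeq genes (GRCh38.p14). Probes of a gene were averaged, and 18819 genes were tested in 1 limma fit (version 3.58.1, R 4.3.3) with a coefficient per group, two-sided, Benjamini-Hochberg adjusted over all genes and called under 0.05. Group ratios were tested against 0, so untreated cells enter only through the other channel of each array. Each SE draws on a spread pooled over the 3 groups, also where a group's own SD was larger or smaller. Whether the arrays shared 1 untreated RNA is not known here, so how far their spread is covered is open. The fit was tested on simulated data. Sequences came from RefSeq and were searched in Python 3.11.15 with numpy 2.4.6 and pandas 2.3.3; figures used matplotlib 3.10.9.

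Named genes are all members, a few of the smallest p from each list, preset genes such as PPARA, CD36, PMP2 and DBI, and the 5 genes most correlated with FABP1; ADIPOQ and the FABP5P3 probe were chosen after their values were seen. The members and lists were chosen with earlier results of these data known. Alternatives covered normalization, scaling, centring, array weights, single probes, fewer groups in the fit, a replicate block and leaving out each array.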

Additional observations from a re-analysis of the deposited data

Results flagged for a closer look

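FABP6 was positive on both linalool arrays and negative on every array of the other groups. The difference was 0.907 for linalool minus lipid-loaded and 1.10 for linalool minus fenofibrate (limma, adjusted p = 0.398 and 0.948), so neither passed the test. The difference from fenofibrate was 0.72 without fenofibrate replicate 1. Linalool replicate 1 lay at 0.02, close to 0 and below that array's median over all probes of 0.0452. The sign there thus depends on how the array is centred. The share of all genes with this split in sign was not counted. Arrays of linalool and lipid-loaded cells did not overlap for 37.1% of all genes, and those of linalool and fenofibrate for 20.0%. No group had the 4 arrays needed to test for an outlying array.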

How the results depend on the processing

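In lipid-loaded against untreated cells, 3 FABP genes were called; the count was 0 with arrays scaled to the same spread, 5 with only that group in the fit (FABP6 and FABP12 added), and 0 to 5 when 1 array was left out (0 without lipid-loaded replicate 1, 1 without lipid-loaded replicate 3, 5 without fenofibrate replicate 1). Over all genes, 6555 were called there, against 2877 after quantile normalization, 0 with arrays scaled, 7404 with only that group, and 0 to 7772 when 1 array was left out. For linalool, 0 of all genes were called, against 124 with arrays scaled and 99 with array weights. In the other 5 comparisons 0 FABP genes were called under every alternative run. The ratios of FABP1, FABP4 and FABP5 in lipid-loaded cells kept their sign throughout. The cause of these changes was not tested, beyond there being fewer arrays where 1 was left out.

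Signs turned only for values that had not passed the test. Linalool minus fenofibrate became −0.0027 for FABP12 with array weights, −0.0078 for FABP2 and 0.027 for FABP5 after quantile normalization, and 0.028 for FABP5 with arrays scaled. With 1 array left out, ratios that turned at 1 end of their range were, for linalool, FABP1 (−0.58 to 0.29), FABP3 (−0.59 to 0.54), FABP9 (−0.17 to 0.28) and FABP12 (−0.50 to 0.34). For fenofibrate they were FABP4 (−0.019 to 0.19), FABP7 (−0.11 to 0.087), FABP9 (−0.30 to 0.099) and FABP12 (−0.58 to 0.28). For linalool minus lipid-loaded it was FABP3 (−0.46 to 0.67, with −0.024 also turned). For fenofibrate minus lipid-loaded they were FABP3 (−0.25 to 0.12, with 0.022) and FABP6 (−0.46 to 0.19). For linalool minus fenofibrate they were FABP2 (−0.067 to 0.22, with −0.0063), FABP3 (−0.40 to 0.73, with −0.014), FABP5 (−0.20 to 0.10, with 0.075 and 0.017), FABP9 (−0.053 to 0.39, with −0.046) and FABP12 (−0.36 to 0.61, with −0.24).

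With a replicate block, 0 FABP genes were called in each difference between groups (smallest adjusted p 0.282, 0.395 and 0.865). Same-numbered lipid-loaded and fenofibrate arrays correlated at 0.14, −0.021 and 0.083 in their deviations from the group mean. Those with different numbers lay between −0.14 and 0.066. With so few arrays a group, these values cannot show whether same-numbered samples were paired. Removing a trend with spot brightness was not run, since the tables used here hold no brightness. Precision is limited by 2 or 3 arrays a group, and signal over background is unknown.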
